A study of Homo sapiens with 9 samples.

Results

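The genes described here encode the heterogeneous nuclear ribonucleoproteins (hnRNPs) of the F/H group, K, M and U, together with SYNCRIP, also known as hnRNP Q. They were chosen by name from a list of 10 genes. Rows were found for 7 of them, HNRNPF, HNRNPH2, HNRNPH3, HNRNPK, HNRNPM, HNRNPU and SYNCRIP, among 46846 features in the table. HNRNPH1, HNRNPL and HNRNPR were not analysed here. All 7 genes passed the filter on low values, a mean of at least 10 normalised reads over the libraries, as did 16846 features in all.

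The 9 libraries hold poly(A) RNA of MDA-MB-231, an established line of triple-negative breast cancer cells. Cells received the solvent DMSO (3 libraries, labelled 12 h), 3.3 µM indisulam for 12 h (3 libraries) or 10 nM pladienolide B for 6 h (3 libraries). Indisulam is a sulfonamide that brings the splicing factor RBM39 to a ubiquitin ligase, which leads to its degradation, and pladienolide B blocks the splicing machinery by binding SF3B. No library of DMSO at 6 h was analysed, so the drug and the shorter time cannot be told apart in any comparison with pladienolide B. The libraries held 59312100 to 83910831 reads, and 3 reads, the upper limit that a count of 0 allows, were worth 2.48 to 3.87 normalised reads (counting error only). The mesenchymal markers VIM, CD44, CAV1 and AXL had means of 60461 to 140909 normalised reads over the 9 libraries, ESR1 and PGR had means of 0.635 and 0.186, and ERBB2 had a mean of 5587. The epithelial markers EPCAM and CDH1 had means of 1236 and 81.9. On the deposited scale they were 1.73 and 1.49 times as high with pladienolide B as in DMSO (called higher, CDH1 not with TMM or equal totals). CAV1, CD44, VIM and AXL were 1.64, 1.55, 1.39 and 1.28 times as high (called higher), and ERBB2 was 0.931 times (not called). With quantile normalisation EPCAM and CDH1 were called higher, CAV1 and CD44 were not called, and VIM, AXL and ERBB2 were called lower. With equal totals EPCAM, CAV1 and CD44 were called higher, VIM was not called, and AXL and ERBB2 were called lower. TMM also called ERBB2 lower. With indisulam AXL was 0.717 times its DMSO mean (called lower) and CD44 1.17 times (called higher, but not with TMM or quantile normalisation). With the replicate number as a block CAV1 was also called higher and VIM lower (limma adjusted p = 0.0153 and 0.0368). Equal totals called VIM lower as well. The part of these markers in the results was not tested. Of markers of other cell types, the leukocyte genes CD3E, PTPRC and LYZ had means of 1.09, 10.8 and 23.5, the endothelial genes VWF and PECAM1 had 12.2 and 53.0, and ACTA2 of smooth muscle had 157. ACTA2 was 0.559 times as high with indisulam as in DMSO (called lower), and its part was not tested.

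The hnRNPs coat nascent transcripts and take part in splicing, polyadenylation, export, stability and translation. Proteins of the F/H group bind runs of guanines through RNA recognition motifs of an unusual kind (quasi-RRMs) and act on splice site choice. hnRNP K binds cytosine-rich RNA and DNA through KH domains, hnRNP M binds GU-rich RNA and acts in splicing programmes of epithelial and mesenchymal cells, and SYNCRIP binds mRNA and acts in its translation and turnover. hnRNP U, also called scaffold attachment factor A, binds RNA and chromatin and is known for roles in chromosome organisation and splicing.

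The 3 genes that passed the test between indisulam and DMSO, HNRNPH2, SYNCRIP and HNRNPU, are shown by the 130 bases that lie from 150 to 21 bases before their RefSeq start sites (GRCh38.p14), so that the start regions of genes that differed in direction can be set side by side. None of these windows overlapped an exon of the GENCODE v29 annotation. Capitals mark matches on either strand to CCAAT, to the GC box with the letters GGGCGG, to the TATA box with TATAAA, to the E-box with CACGTG and to the cyclic AMP response element with TGACGTCA, and each sequence is written 5′ to 3′ on the strand of the gene.
HNRNPH2, chrX:101408072-101408201, plus strand: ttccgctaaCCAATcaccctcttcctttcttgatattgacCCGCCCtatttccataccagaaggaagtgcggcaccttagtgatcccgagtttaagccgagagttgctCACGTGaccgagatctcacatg
SYNCRIP, chr6:85643891-85644020, minus strand: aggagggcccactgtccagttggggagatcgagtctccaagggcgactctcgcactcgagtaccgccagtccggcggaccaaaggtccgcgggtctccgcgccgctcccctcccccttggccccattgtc
HNRNPU, chr1:244864564-244864693, minus strand: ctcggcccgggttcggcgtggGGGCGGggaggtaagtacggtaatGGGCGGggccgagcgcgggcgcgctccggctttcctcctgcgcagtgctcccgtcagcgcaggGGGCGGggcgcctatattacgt

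The HNRNPH2 window held 1 CCAAT, 1 GC box on the opposite strand and 1 E-box, and none of these overlapped another. The HNRNPU window held 3 GC boxes and no match to the other motifs. The SYNCRIP window held no match to any of them. Windows of the genes not shown held matches too. The E-box was found for HNRNPH3 and HNRNPM, CCAAT for HNRNPF and HNRNPK, and the GC box for HNRNPF, HNRNPH3 and HNRNPK. The HNRNPM window and the HNRNPH3 window with the E-box lay wholly within annotated exons. Whether the motifs go with the direction of change was not tested. Of 35116 RefSeq promoter windows of the same length, 22.0% held CCAAT, 33.3% the GC box, 3.94% the E-box, 6.34% the TATA box and 1.18% the cyclic AMP response element. A match is a stretch of letters and not a measured binding site.

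Per kilobase of exon in the deposited features, HNRNPK had the highest level in DMSO and SYNCRIP the lowest. The normalised reads per kilobase in DMSO were 14495 ± 145 for HNRNPK, 8939 ± 96.8 for HNRNPF, 6182 ± 138 for HNRNPM, 5167 ± 99.2 for HNRNPU, 4792 ± 139 for HNRNPH3, 3634 ± 144 for HNRNPH2 and 1674 ± 8.40 for SYNCRIP (SD, n = 3 each). Every pair of neighbours in this order was separated by more than the sum of their SDs. Per kilobase of the principal transcript in GENCODE v29, HNRNPU (7252) stood above HNRNPM (6483), and the other neighbours kept their order. With indisulam HNRNPH2 (4618 ± 126) stood above HNRNPU (4399 ± 164) and HNRNPH3 (4287 ± 183) on the exon scale, by less than the sum of their SDs in the case of HNRNPU. The place of HNRNPU depends on the length used, 9625 bases of exon against 6858 bases in its principal transcript. Levels per kilobase of the principal transcript were worked out for DMSO only.

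**Figure D1:**
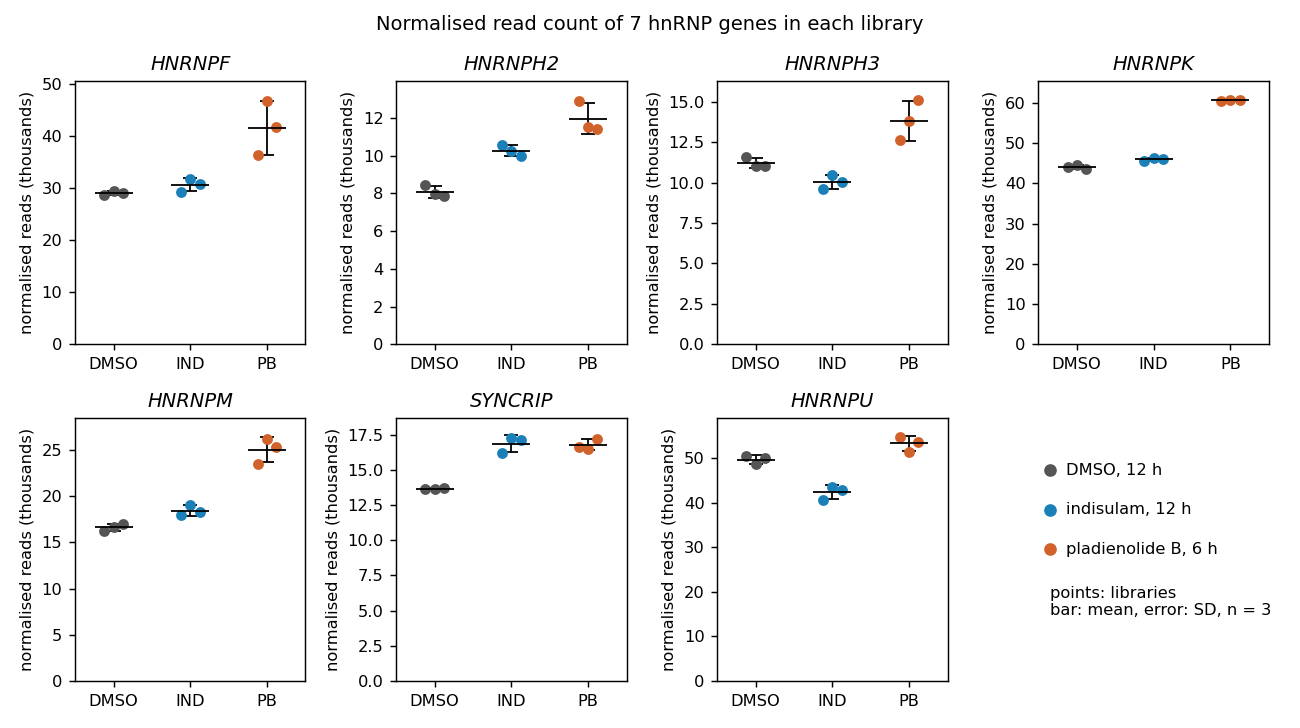
Normalised reads (linear axes from 0) of each gene in the 9 libraries, with points for libraries, bars for means and error bars for the SD (n = 3). HNRNPU is lowest with indisulam (40552 to 43555), the SYNCRIP values of the drugs overlap, and HNRNPF varies most among the pladienolide B libraries (36321 to 46778).

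The comparison of indisulam with DMSO at the same time of 12 h showed 2 of the 7 genes higher, 1 lower and 4 that did not pass the test (limma on log2(value + 1), Benjamini-Hochberg adjusted p under 0.05 over 16846 features). HNRNPH2 and SYNCRIP rose to 1.27 and 1.23 times their DMSO means, and HNRNPU fell to 0.851 of its DMSO mean. Of all features tested, 26.9% were called, 14.5% higher and 12.4% lower, and counts among 7 genes are too small to set them apart from that background. This fit did not pair the libraries. With the replicate number as a block HNRNPM was also called higher and HNRNPH3 lower. In that fit 21.1% of all features were called higher and 16.3% lower. The median log2 fold change was 0.07 over the 7 genes and 0.05 over all features. In bulk RNA a change in RNA per cell and a change in the mix of cells cannot be told apart.

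HNRNPH2 (GSHG0045949, hg38 chrX:101408219-101414133) encodes an F/H protein closely related to hnRNP H1. Its DMSO libraries held 8442, 7952 and 7843 normalised reads, and its indisulam libraries held 10550, 10260 and 9991. All 3 indisulam libraries lay above all 3 DMSO libraries. The log2 fold change was 0.35 ± 0.06 (SE, limma adjusted p = 0.000972). In GENCODE v29, 13.5% of the 75-base stretches of its transcript are shared with the read-through gene RPL36A-HNRNPH2, so reads of that gene could be counted with it.

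SYNCRIP (GSHG0038189, chr6:85607784-85643309) was close to constant among the DMSO libraries, with 13643, 13608 and 13740 normalised reads. Its indisulam libraries held 16174, 17289 and 17097, all above the DMSO range. The log2 fold change was 0.30 ± 0.05 (SE, limma adjusted p = 0.000618).

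HNRNPU (GSHG0003734, chr1:244850297-244864543) had 50522, 48671 and 50006 normalised reads in DMSO. With indisulam the libraries held 40552, 43555 and 42900, all below the DMSO range. The log2 fold change was -0.23 ± 0.05 (SE, limma adjusted p = 0.00379). HNRNPU carried more transcripts annotated as targets of nonsense-mediated decay or as holding a retained intron than the other genes, 9 and 10 of its 31 transcripts in GENCODE v29. The deposited values are 1 per gene and do not separate them.

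HNRNPH3 and HNRNPM lay near the threshold. HNRNPH3 (GSHG0004147, chr10:68331174-68343196), which encodes a shorter F/H protein, had 11583, 11019 and 11021 normalised reads in DMSO and 9603, 10458 and 10024 with indisulam. The groups did not overlap, and the log2 fold change was -0.16 ± 0.07 (SE, limma adjusted p = 0.0893). With the replicate number as a block the adjusted p was 0.0346. The neighbouring gene RUFY2 overlaps HNRNPH3 over 2090 bases, and its mean was 958 normalised reads in DMSO, 561 in the indisulam group and 698 in the pladienolide B group. Its part in the HNRNPH3 value was not tested.

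HNRNPM (GSHG0021119, chr19:8444767-8489114) had 16276, 16648 and 17020 normalised reads in DMSO and 17914, 19055 and 18259 with indisulam, again without overlap. The log2 fold change was 0.14 ± 0.05 (SE, limma adjusted p = 0.0632), and with the replicate block the adjusted p was 0.0107. In the blocked fit 3 of the 7 genes were thus called higher and 2 lower, where 21.1% of all features were called higher and 16.3% lower.

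HNRNPF and HNRNPK differed least between indisulam and DMSO. HNRNPF (GSHG0004905, chr10:43385617-43409186) had 28738, 29358 and 29142 normalised reads in DMSO and 29314, 31774 and 30758 with indisulam, and the groups overlapped. The log2 fold change was 0.07, with a 95% limma interval of -0.09 to 0.24 (adjusted p = 0.511). HNRNPK (GSHG0044767, chr9:83968083-83980615) had 44126, 44582 and 43701 in DMSO and 45560, 46367 and 46016 with indisulam. These ranges did not overlap, but the log2 fold change of 0.06 had an interval of -0.04 to 0.15 (limma adjusted p = 0.351). In all, 6 of the 7 genes did not overlap between indisulam and DMSO, against 48.4% of all features tested.

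The comparison of pladienolide B with DMSO, on the deposited scale, showed 6 of the 7 genes higher and none lower, where 69.8% of all features were called, 34.3% higher and 35.5% lower. With every library set to the same total, none of the 7 was called higher and 3 were called lower, where 16.2% of all features were higher and 53.9% lower. With quantile normalisation 1 was higher and 2 were lower, against 35.9% and 32.2% of all features. The direction of most of these genes thus depends on the scaling. On the deposited scale all 7 log2 fold changes were above 0, and edgeR and DESeq2 also called none lower. On the deposited scale the pladienolide B libraries had a total 1.39 times that of the DMSO libraries, and the indisulam libraries 1.04 times. Setting equal totals moved the median log2 fold change of all features by -0.47 and quantile normalisation moved it by 0.06. Of the features called, 49.1% were higher on the deposited scale, 23.1% with equal totals and 52.7% with quantile normalisation.

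HNRNPM and HNRNPH2 had the largest log2 values of the 7 on the deposited scale, apart by less than their SEs. The HNRNPM pladienolide B libraries held 23525, 26198 and 25314 normalised reads, all above the DMSO range, and the log2 fold change was 0.59 ± 0.05 (SE, limma adjusted p = 3.43e-07). With equal totals it was 0.11 (limma adjusted p = 0.0520) and with quantile normalisation 0.10 (limma adjusted p = 0.0667).

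Of the F/H genes, HNRNPH2 had 12919, 11545 and 11431 normalised reads with pladienolide B, with no overlap with DMSO. Its log2 fold change was 0.57 ± 0.06 (SE, limma adjusted p = 1.47e-06), 0.09 with equal totals and 0.27 with quantile normalisation. It was the only one of the 7 called higher after quantile normalisation. HNRNPF was the most variable, with 36321, 46778 and 41654 normalised reads in the libraries labelled replicate 1, 2 and 3. Its log2 fold change was 0.51 ± 0.07 (SE, limma adjusted p = 3.43e-05), but 0.04 with equal totals and -0.043 with quantile normalisation. HNRNPH3 had 12610, 13824 and 15092, all above DMSO, and a log2 fold change of 0.30 ± 0.07 (SE, limma adjusted p = 0.00105), which reversed to -0.17 with equal totals and -0.031 with quantile normalisation.

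HNRNPK varied least, with 60608, 60847 and 60861 normalised reads in the pladienolide B libraries. All 3 lay above the DMSO range, and the log2 fold change was 0.46 ± 0.04 (SE, limma adjusted p = 4.53e-07). With equal totals it was -0.011, and with quantile normalisation HNRNPK was called lower (-0.23, limma adjusted p = 0.000201). SYNCRIP had 16656, 16461 and 17209, with a log2 fold change of 0.30 ± 0.05 (SE, limma adjusted p = 0.000103), -0.18 with equal totals and -0.095 with quantile normalisation.

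HNRNPU was the gene that did not pass the test with pladienolide B. Its libraries held 54805, 51508 and 53770 normalised reads, just above the DMSO range, and the log2 fold change was 0.10 ± 0.05 (SE, limma adjusted p = 0.0842). With the replicate block the adjusted p was 0.0393, and without the library labelled pladienolide B replicate 2 it was 0.0330. With equal totals and with quantile normalisation HNRNPU was called lower, by -0.37 and -0.60 on the log2 scale (limma adjusted p = 1.59e-05 and 4.61e-07). All 7 genes had non-overlapping values between pladienolide B and DMSO on the deposited scale, against 71.8% of all features.

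**Figure D2:**
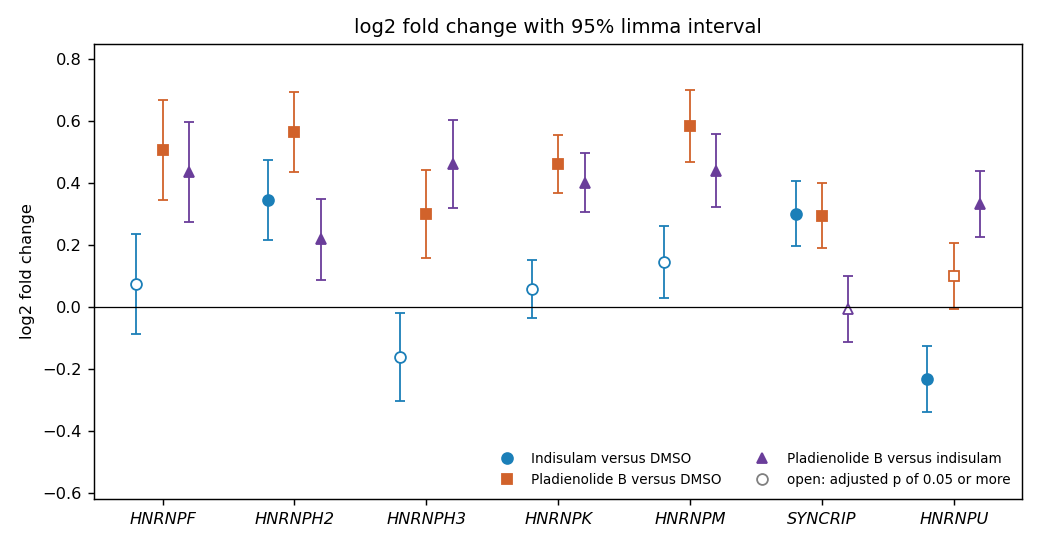
log2 fold changes of the 7 genes in the 3 comparisons on the deposited scale, with 95% limma intervals and open symbols for an adjusted p of 0.05 or more. HNRNPU lies below 0 with indisulam, and the SYNCRIP difference between the drugs lies at -0.01. The pladienolide B values depend on the scaling: HNRNPF, HNRNPH3, HNRNPK, HNRNPU and SYNCRIP turn negative against DMSO under at least 1 other scaling, and HNRNPF, HNRNPH2, HNRNPK, HNRNPM and HNRNPU do so against indisulam.

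**Figure D3:**
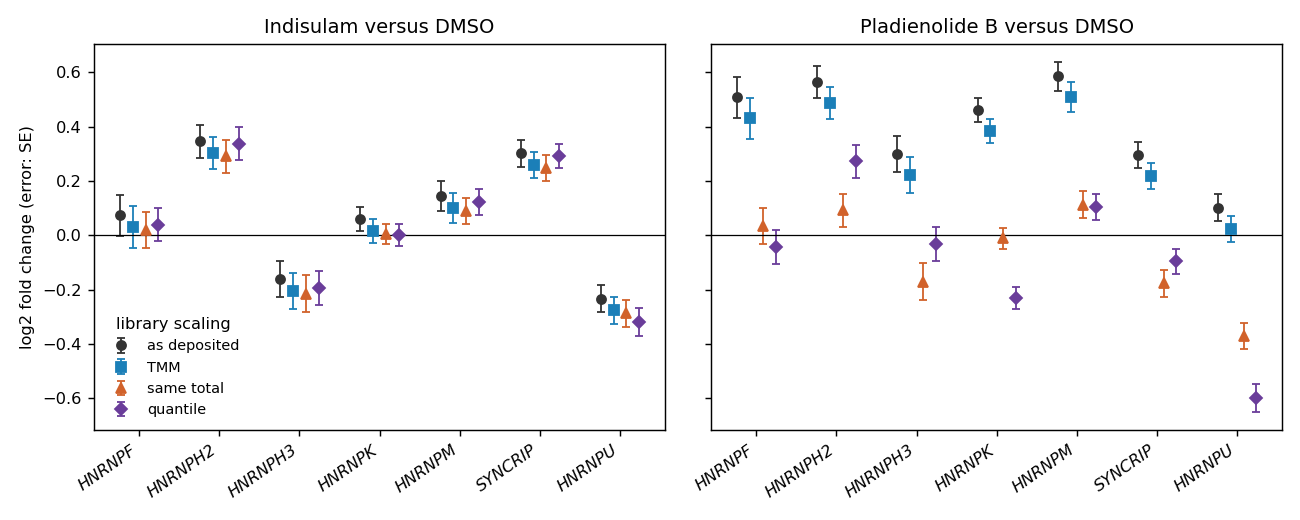
log2 fold changes (error bars: SE) of the 7 genes against DMSO under 4 library scalings. With indisulam the points of each gene lie close together, whereas with pladienolide B equal totals and quantile normalisation bring most genes to 0 or below, HNRNPU to -0.37 and -0.60.

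The direct comparison of pladienolide B with indisulam, which differ in drug, dose and time at once, showed 6 of the 7 genes higher with pladienolide B and none lower, where 70.3% of all features were called, 34.7% higher and 35.6% lower. By edgeR and DESeq2 none was lower either. The log2 differences were 0.46 for HNRNPH3, 0.44 for HNRNPM, 0.43 for HNRNPF, 0.40 for HNRNPK, 0.33 for HNRNPU and 0.22 for HNRNPH2. SYNCRIP differed by -0.01, with a 95% limma interval of -0.11 to 0.10 (adjusted p = 0.914), and its 2 drug groups overlapped. In all, 6 of the 7 genes did not overlap, against 71.8% of all features. Scaling changed these calls too: with equal totals none of the 7 was higher and HNRNPH2 (-0.20) and SYNCRIP (-0.42) were lower, where 17.9% of all features were higher and 50.4% lower. With quantile normalisation HNRNPH3 was called higher (0.16), and HNRNPK (-0.23), HNRNPU (-0.28) and SYNCRIP (-0.39) were called lower, where 37.3% of all features were higher and 32.1% lower.

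Ratios within a library do not depend on a scaling by 1 factor per library, such as equal totals or TMM, but quantile normalisation changes them. Each gene was therefore also set against the mean log2 value of the other 6 genes in the same library, a description chosen after the data were seen and given with no test. HNRNPU stood 1.53 ± 0.02 above the others in DMSO, 1.17 ± 0.03 after indisulam and 1.18 ± 0.09 after pladienolide B (log2, SD, n = 3 each). Both drug groups lay below DMSO without overlap, by -0.36 and -0.35, and by -0.42 and -0.60 after quantile normalisation. The drug comparisons share the DMSO libraries. HNRNPH2 moved the other way against the other 6, by 0.32 with indisulam and 0.19 with pladienolide B, without overlap in either. After quantile normalisation these values were 0.35 and 0.42, and without the library labelled pladienolide B replicate 1 the second was 0.10.

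SYNCRIP relative to the other 6 genes was higher by 0.26 with indisulam, without overlap, and by 0.29 after quantile normalisation. With pladienolide B it was lower by -0.12 on the deposited values, without overlap, but differed by -0.0074 after quantile normalisation. Between the drugs the difference was -0.39, or -0.30 after quantile normalisation. HNRNPH3 was lower by -0.28 with indisulam without overlap, and its value of -0.12 with pladienolide B, where the groups overlapped, turned to 0.068 after quantile normalisation. HNRNPM was higher by 0.08 and 0.21, without overlap in either. HNRNPK differed by -0.02 and 0.07, the second without overlap, and turned to -0.16 with pladienolide B after quantile normalisation. HNRNPF differed by -0.00 and 0.12, with overlap in both, and its pladienolide B value was 0.03 without the library labelled replicate 2, 0.21 without replicate 1 and 0.053 after quantile normalisation. Since each gene is measured against the other 6, these values are not independent of each other.

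**Figure D4:**
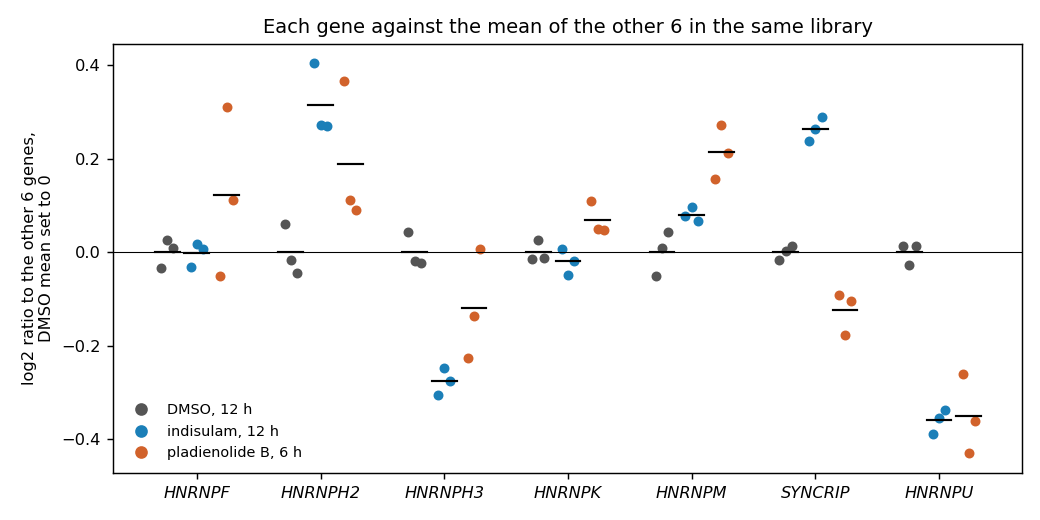
log2 ratio of each gene to the mean of the other 6 in the same library, with the DMSO mean set to 0, points for libraries and bars for group means. HNRNPU lies below DMSO in all 6 drug libraries, and SYNCRIP lies above DMSO with indisulam and below it with pladienolide B, a difference of -0.12 that is -0.0074 after quantile normalisation.

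Ratios between related genes were tested by an exact two-sided permutation test of 3 libraries against 3, which cannot give a p below 0.1; over the 18 tests the lowest adjusted p was 0.138, so none could pass. Within the F/H group the ratio of HNRNPH2 to HNRNPH3 ran from 0.712 to 0.729 in DMSO, from 0.981 to 1.10 after indisulam and from 0.757 to 1.02 after pladienolide B. The DMSO libraries thus lay below all 6 drug libraries (log2 difference 0.51 with indisulam and 0.26 with pladienolide B, exact permutation p = 0.1 each). Without the library labelled pladienolide B replicate 1 the second difference was 0.14. The ratio of HNRNPH3 to HNRNPF was lower with both drugs, by -0.23 and -0.21 (exact permutation p = 0.1 each). The pladienolide B value was -0.12 without the library labelled replicate 2 and 0.013 after quantile normalisation. That of HNRNPH2 to HNRNPF differed by 0.27 with indisulam (exact permutation p = 0.1) and by 0.06 with pladienolide B (exact permutation p = 0.8), the latter 0.17 without replicate 2 and 0.32 after quantile normalisation. These 3 pairs were chosen after the data were seen.

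The other pairs set a member against a structural relative. HNRNPUL1, a paralog of HNRNPU, had overlapping ratios to HNRNPU in DMSO and with indisulam, 0.823 to 0.878 in DMSO and 0.830 to 0.875 with indisulam (log2 difference 0.01, exact permutation p = 0.7). With pladienolide B the ratio was 0.907 to 1.05, higher by 0.22 (exact permutation p = 0.1). PCBP2, which like HNRNPK encodes a KH-domain protein that binds poly(C), had a lower ratio to HNRNPK in both drug groups without overlap, with log2 differences of -0.18 with indisulam and -0.65 with pladienolide B (exact permutation p = 0.1 each). After quantile normalisation the latter was -0.41. MYEF2, a relative of HNRNPM, was higher in ratio to HNRNPM by 0.37 with indisulam and lower by -0.68 with pladienolide B (exact permutation p = 0.1 each). The latter was -0.45 without the library labelled pladienolide B replicate 2 and turned to 0.044 after quantile normalisation.

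The genes differ in build, from HNRNPF and HNRNPH2 with a single coding exon in their principal GENCODE v29 transcripts to HNRNPM with 17. HNRNPH3 and SYNCRIP have 9 coding exons each, HNRNPU 14 and HNRNPK 15. The number of coding exons did not order the pladienolide B values on the deposited scale: HNRNPM with 17 and HNRNPH2 with 1 had the largest log2 values, 0.59 and 0.57, and HNRNPU with 14 the smallest, 0.10. With indisulam HNRNPF and HNRNPH2, with 1 coding exon among 3 and 2 exons in those transcripts, stood at 0.07 and 0.35. These are descriptions of 7 genes, with no test.

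Other features overlap some of the genes, and the strand setting of the counting is not given in the sources used here. RMI1 overlaps HNRNPK over 257 bases, and its mean over the 9 libraries equals 5.21% of that of HNRNPK. RUFY2 had 6.32% of the HNRNPH3 mean, PBLD 0.334%, and MIR7-1 in HNRNPK 0.0253%. Of the features without a symbol that overlap HNRNPM, GSHG0021120 had 0.641% of its mean and GSHG0022319 0.0581%. The pseudogene HNRNPKP3 was at 0 in all 9 libraries. It shares no 75-base stretch with the HNRNPK transcript, whereas HNRNPKP2 shares 1.57% and HNRNPKP4 1.26% of them. Shared 75-base stretches with other genes made up 10.9% of the HNRNPM transcript, 5.49% of SYNCRIP, 2.82% of HNRNPK, 1.90% of HNRNPH3, 0.221% of HNRNPU and 0% of HNRNPF, and how such reads were counted is not known.

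The other hnRNP genes moved to either side with indisulam and mostly upwards with pladienolide B on the deposited scale. Of 14 genes on this list 13 were found and 12 were tested, and RALYL was at 0. With indisulam 3 were called higher and 4 lower, where 14.5% of all features were called higher and 12.4% lower. The median log2 fold change was -0.04. With the replicate block 5 were higher and 6 lower, where that fit called 21.1% of all features higher and 16.3% lower. HNRNPDL, a paralog of HNRNPD, rose by 0.62 (limma adjusted p = 0.00107), and HNRNPC, which binds uridine tracts, rose by 0.33 (limma adjusted p = 0.000396). HNRNPAB and RBMX, which encode RNA-binding proteins of nascent transcripts, fell by 0.58 and 0.51 (limma adjusted p = 8.21e-05 and 8.07e-05). These 4 genes kept direction and call under the other scalings.

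With pladienolide B 11 of the 12 other hnRNP genes were called higher and none lower, where 34.3% of all features were higher and 35.5% lower. Their median was 0.74, against 0.46 for the 7 genes and -0.01 for all features. With equal totals 8 of the 12 were called higher and 1 lower, where 16.2% of all features were higher and 53.9% lower. With quantile normalisation 8 were called higher and 2 lower, against 35.9% and 32.2% of all features. HNRNPDL (1.62, limma adjusted p = 1.59e-08) and HNRNPA0 (1.18, limma adjusted p = 1.81e-09) had the largest changes and kept the call under each scaling tried. HNRNPAB was the gene not called higher, at -0.14 (limma adjusted p = 0.0945, and not called by edgeR or DESeq2), and it was called lower with the replicate block (limma adjusted p = 0.00596), TMM (-0.22), equal totals (-0.61) and quantile normalisation (-0.62). Between the drugs all 12 were called higher with pladienolide B on the deposited scale, against 34.7% of all features. Equal totals called 8 of them higher and quantile normalisation 6, against 17.9% and 37.3% of all features. Quantile normalisation called HNRNPA2B1 lower (-0.27, limma adjusted p = 0.000331), where 32.1% of all features were lower.

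The structural relatives of the 7 genes were split in both comparisons. Of 19 listed genes 18 were found and 15 were tested, and RBM46 was at 0. With indisulam 4 were called higher and 4 lower, against 14.5% and 12.4% of all features, with a median of -0.11. With the replicate block 6 were higher and 7 lower, against 21.1% and 16.3% of all features in that fit. PTBP2, a polypyrimidine tract binding protein known for its neuronal role, rose by 0.93 (limma adjusted p = 0.000937) and MYEF2 by 0.51 (limma adjusted p = 0.0166). PCBP3, a relative of HNRNPK, fell by 1.11 (limma adjusted p = 0.00011), and GRSF1, which like the F/H proteins binds guanine-rich RNA, fell by 0.47 (limma adjusted p = 0.000208). These 4 kept direction and call under the other scalings.

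With pladienolide B 5 relatives were called higher and 5 lower on the deposited scale, against 34.3% and 35.5% of all features, with a median of -0.00. With equal totals 2 were higher and 11 lower, against 16.2% and 53.9% of all features. With quantile normalisation 3 were higher and 7 lower, against 35.9% and 32.2% of all features. RBM12B (1.57, limma adjusted p = 1.53e-09) and PCBP1 (1.15, limma adjusted p = 4.70e-09) rose. ESRP2, an epithelial splicing regulator with RNA recognition motifs akin to those of the F/H proteins, fell by 1.65 (limma adjusted p = 9.33e-09), and PTBP3 fell by 1.34 (limma adjusted p = 1.84e-08). These 4 kept direction and call under each scaling tried. ESRP1 and A1CF were too low to be tested.

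**Figure D5:**
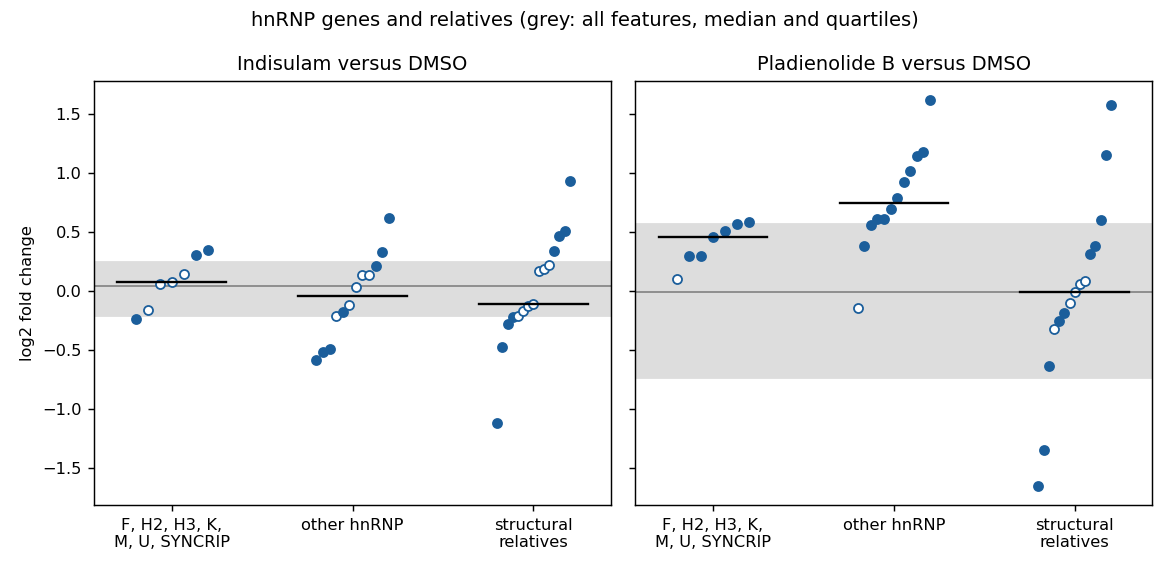
log2 fold changes on the deposited scale of the 7 genes, the other hnRNP genes (12 tested) and the structural relatives (15 tested), with filled points for adjusted p under 0.05, bars for medians and a grey band for the quartiles of all features. The other hnRNP genes have a median of 0.74 with pladienolide B, and with equal totals or quantile normalisation 8 of the 12 are called higher, 1 or 2 lower. Of all features 16.2% or 35.9% are called higher under these scalings, and 53.9% or 32.2% lower.

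Across the 9 libraries the profiles of the 7 genes, each centred on its own mean log2 value, were compared by their root mean square difference. The most alike members were HNRNPF and HNRNPM (0.0627) and the least alike HNRNPH2 and HNRNPU (0.257). Among 11520 genes with a symbol and a mean of at least 100 normalised reads, the nearest profile was that of YIF1A for HNRNPF (0.0220), UBE2A for HNRNPK (0.0264), NDUFA8 for HNRNPM (0.0298), ANKHD1 for SYNCRIP (0.0350), RPE for HNRNPU (0.0371), SGCB for HNRNPH2 (0.0375) and POP5 for HNRNPH3 (0.0411). RPE, the nearest to HNRNPU, had means of 2824 normalised reads in DMSO, 2387 after indisulam and 2999 after pladienolide B. All points come from the same 9 libraries, and likeness is given as a description.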

How the data were processed

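Poly(A) RNA-seq of 9 libraries was used, with groups and replica numbers from the labels. The deposited signal is the number of reads of a feature over a size factor of its library; its table's name and the submitters' processing notes give DESeq2 for this step. Those notes also list FastQC, Picard, SAMtools, STAR 2.7.5a and the build hg38. All values (100% within 0.01) were whole multiples of the value of 1 read. Whether the replicas are separate cultures is not stated in the labels, and p-values cover the spread of these libraries, which may be technical. No 2 libraries agreed within sampling noise (lowest chi-square per gene within a group 8.74).

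limma 3.58.1 (R 4.3.3) was fitted to log2(value + 1) of 16846 features with a mean of at least 10, all 9 libraries in 1 fit with a mean trend, two-sided, with Benjamini-Hochberg adjustment at 0.05. The log2 scale understates changes of low genes. edgeR 4.0.16 and DESeq2 1.42.0 on the recovered reads were alternatives. The fit was tested on simulated data with genes changed in the indisulam group only, a setting that does not cover the pladienolide B comparisons. Same-numbered libraries of different groups deviated together (correlations of deviations from group means 0.105 to 0.376 in all 9 pairs). The 18 pairs of different numbers had correlations of -0.293 to 0.121. The numbers were therefore taken to pair the libraries in an alternative fit, and blocked values stand where a call changes. The main fit and the permutation tests did not use this pairing. All members are named, and from each list the 2 called genes with the largest change in each direction and drug. Where an overlapping feature or pseudogene is named, its mean is at least 10 or its symbol derives from a member. Members and lists were chosen with earlier results of these data known. Promoter sequences are from RefSeq (GRCh38.p14), transcripts from GENCODE v29.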

Additional observations from a re-analysis of the deposited data

How the results depend on the processing

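Each comparison was repeated under 20 alternatives: pseudocounts of 0.5 and 10, no filter and a filter at 50, TMM, equal totals, quantile normalisation, edgeR and DESeq2 on recovered reads, the replicate block, only the 2 groups compared, and each library left out in turn. With indisulam HNRNPH2 (0.29 to 0.38), SYNCRIP (0.25 to 0.33) and HNRNPU (-0.32 to -0.20) kept their calls in all 20, with adjusted p of at most 0.00791, 0.00529 and 0.0206 (limma, or edgeR or DESeq2 in their alternatives). The members called lower with indisulam numbered 2 with TMM, equal totals, quantile normalisation, the replicate block and only the 2 groups compared, and 1 to 2 when a library was left out (2 without pladienolide B replicate 1 or 3). Of the 16846 features, TMM, equal totals and quantile normalisation called 2441, 2543 and 2411 lower, and the replicate block 16.3%. The second gene was HNRNPH3, called in 7 of 20 alternatives (adjusted p 0.0185 to 0.250), and HNRNPM was called higher in 4 of 20 (adjusted p 0.0107 to 0.209). Of all features called with indisulam, 53.8% were higher on the deposited scale, 42.9% with TMM, 40.3% with equal totals and 50.5% with quantile normalisation.

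With pladienolide B against DMSO, equal totals left 0 members higher and 3 lower, against 16.2% and 53.9% of all features. Quantile normalisation left 1 higher and 2 lower, against 35.9% and 32.2%. Against indisulam equal totals gave 0 higher and 2 lower, where 17.9% of all features were higher and 50.4% lower. Quantile normalisation gave 1 higher and 3 lower there, where 37.3% of all features were higher and 32.1% lower. The log2 values that reversed against DMSO were, with equal totals, HNRNPH3 -0.17, HNRNPK -0.011, HNRNPU -0.37 and SYNCRIP -0.18, and with quantile normalisation HNRNPF -0.043, HNRNPH3 -0.031, HNRNPK -0.23, HNRNPU -0.60 and SYNCRIP -0.095. Against indisulam they were, with equal totals, HNRNPH2 -0.20, HNRNPK -0.016 and HNRNPU -0.084, and with quantile normalisation HNRNPF -0.082, HNRNPH2 -0.065, HNRNPK -0.23, HNRNPM -0.017 and HNRNPU -0.28. The reversals follow from the scaling itself, since the other steps were the same; which scaling matches the RNA per cell was not tested. The replicate block changed no other call of the 7 genes than those given above. Quantile normalisation of the ratios, added after the data were seen, moved MYEF2 to HNRNPM with pladienolide B to 0.044 against DMSO and -0.37 against indisulam, and PCBP2 to HNRNPK to -0.41 and -0.23. Planned ratios with HNRNPH1, HNRNPR or HNRNPL were not run. Counting error was small at these depths, and the 3 libraries a group set the precision.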
